A study of Mus musculus with 18 samples.

Results

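The Sox genes encode transcription factors with a DNA-binding domain related to that of Sry, and 10 of them that mark progenitors or new neurons of the brain were followed in the embryonic dorsal telencephalon, the tissue that forms the neocortex. They were Sox1, Sox2 and Sox3 (subgroup B1), Sox21 (B2), Sox4, Sox11 and Sox12 (C), Sox6 (D), and Sox8 and Sox9 (E). Each was taken by its gene symbol and had 1 probe set, which gave 10 of the 16661 probe sets tested. The platform's probe table names 18 Sox genes in all, and no measured value was used to choose the 10.

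The study set mouse embryos homozygous for an Insm1 knockout (4 arrays) and heterozygous embryos (6 arrays) against wildtype embryos (8 arrays), all at E13.5 (embryonic day), to look for genes that depend on Insm1. Insm1 encodes a zinc finger transcription factor of newly forming neurons and endocrine cells. The labels name neither the construction of the knockout allele, nor the strain, sex or litters of the embryos. If embryos shared litters, the p-values measure only the spread between these samples. Levels are log2 signals of Affymetrix whole-transcript arrays, on which a difference of 1 is a change of 2-fold, and all differences are means of log2 values with mutant minus wildtype, or homozygous minus heterozygous.

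In the developing cortex SoxB1 factors act in neural progenitors and hold them in the undifferentiated state, and Sox21 is known to counter them. SoxC factors rise as cells leave the progenitor state and activate genes of young neurons. Sox9 acts with SoxB1 factors in progenitors and later in glia, where Sox8 has a related role. SoxD factors such as Sox6 have no activation domain of their own and modulate other Sox proteins. In pieces of whole tissue, fewer cells of a type and less RNA per cell cannot be told apart.

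Insm1, the gene targeted, had log2 levels of 3.61, 3.54, 3.23 and 2.87 in homozygous replicates 1 to 4. Its lowest, median and highest levels were 4.02, 4.89 and 5.17 in heterozygous embryos and 4.84, 5.35 and 5.77 in wildtype embryos. The homozygous embryos thus lay below every other embryo, while the heterozygous and wildtype ranges overlapped. Insm1 fell by 2.03 ± 0.20 (SE) in homozygous against wildtype embryos, with a limma adjusted p of 3.81e-05. The heterozygous difference from wildtype was -0.57 ± 0.18 (SE) and did not pass, with an adjusted p of 0.641. The homozygous difference from heterozygous was -1.46 ± 0.21 (SE), with an adjusted p of 0.00785, a call that was lost with only the groups compared in the fit (0.0748), with the replicate number as a block (0.101) and without homozygous replicate 4 (0.0709). The labels do not say where the probe set lies relative to the deleted part.

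Markers of dorsal cortex were present in every genotype. Pax6, a factor of cortical progenitors, averaged 6.24 in homozygous, 6.14 in heterozygous and 6.18 in wildtype embryos, and the neuronal factor Tbr1 averaged 7.28, 7.39 and 7.48 in the same order. Dlx2, a marker of the ventral forebrain, stood at 2.17, 2.42 and 2.33. Homozygous replicate 2 and heterozygous replicate 6 stood apart from the other arrays: their mean over 9 measured genes of the hypoxia response was 4.52 and 4.49, against at most 3.39 in the other 16 arrays. They also stood apart over all probe sets tested. On the main axis of variation among arrays (first principal component, 22% of the variance) they lay at 19.23 and 34.97, the other 16 at 5.55 or less. Homozygous differences from wildtype of Sox2, Sox3, Sox4, Sox9 and Sox21 are given with and without these arrays. Heterozygous differences from wildtype of Sox6 and Sox12 are given with and without heterozygous replicate 6. Array 75th percentiles ran from 4.67 to 4.75 in homozygous, 4.50 to 4.78 in heterozygous and 4.67 to 4.87 in wildtype embryos.

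None of the 10 Sox genes passed the test in any of the 3 comparisons. In homozygous against wildtype embryos 94 of 16661 probe sets passed (0.564%), of which 84 were lower (0.504%) and 10 higher (0.0600%). In homozygous against heterozygous embryos 5 passed (0.0300%), of which 3 were lower (0.0180%) and 2 higher (0.0120%), and in heterozygous against wildtype embryos none did (0%). At an unadjusted p under 0.05, 1 Sox gene stood in homozygous against wildtype (Sox4, against 15.3% of all probe sets), 1 in heterozygous against wildtype (Sox11, against 7.47%) and 0 in homozygous against heterozygous (against 8.53%). A Sox count of 1 of 10 is near these background shares.

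**Figure D1:**
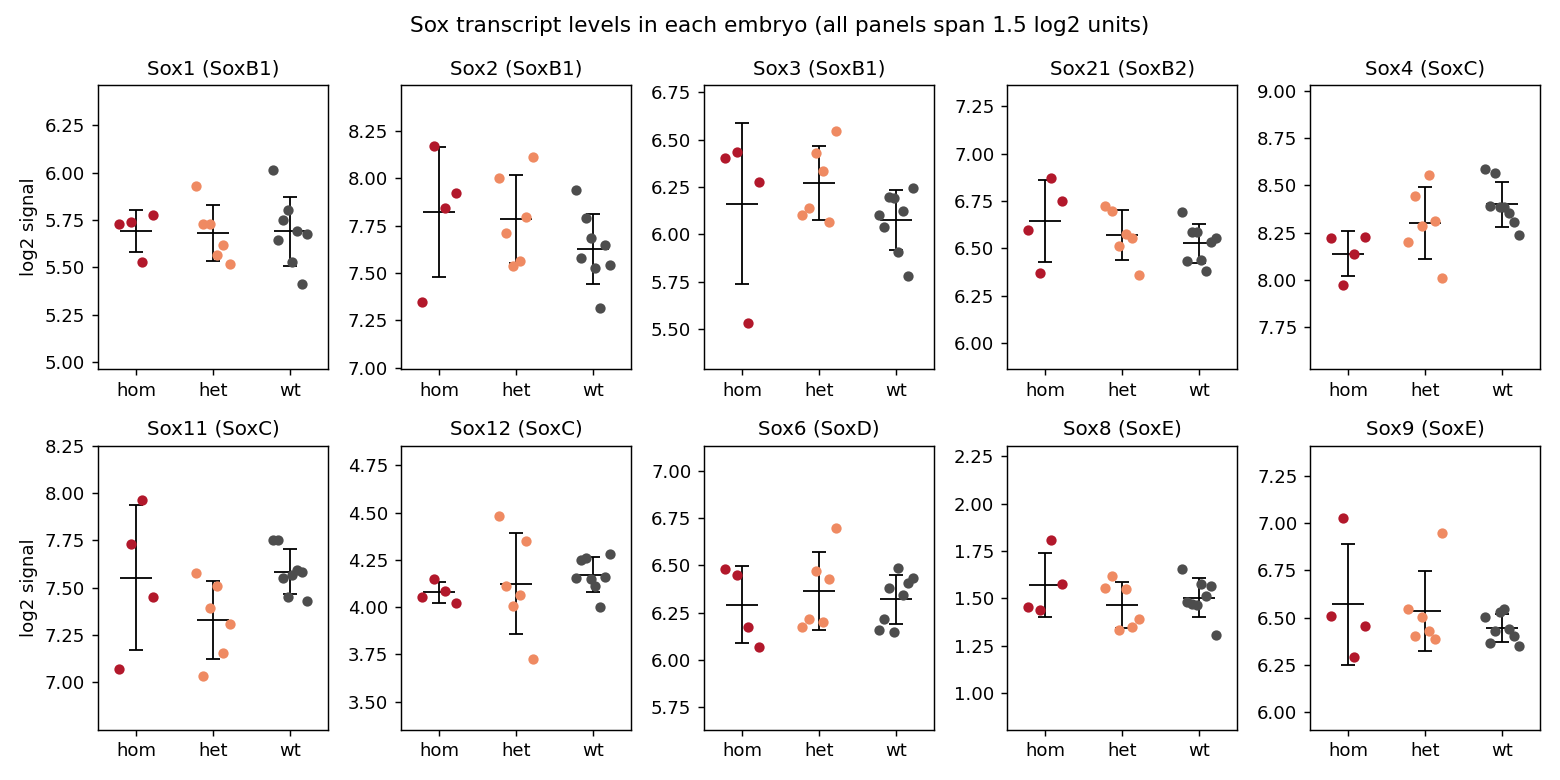
Log2 signal (vertical axis, all panels of the same span) of the 10 Sox genes in each of the 18 embryos, grouped as homozygous (hom), heterozygous (het) and wildtype (wt), with a point per embryo and the mean with SD. The genotypes overlap in each panel except for Sox4, where the highest homozygous embryo (8.23) lies just below the lowest wildtype embryo (8.24).

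Sox4, a SoxC gene, had the smallest p of the 10 in homozygous against wildtype embryos, and Sox11, also SoxC, in heterozygous against wildtype embryos. The 250 bases of reference sequence upstream of each SoxC start site are shown because these 3 genes include Sox4, the member with the smallest p, and Sox2 is shown beside them as the progenitor gene of the set. They come from RefSeq on GRCm38.p6, read 5′ to 3′ on the gene's strand at chr13:28953700-28953949 (Sox4, minus), chr12:27342719-27342968 (Sox11, minus), chr2:152398047-152398296 (Sox12, minus) and chr3:34649745-34649994 (Sox2, plus). Capitals mark matches on either strand to the Sox motif ACAANG, to the octamer ATGCAAAT that POU factors bind, or to the consensus motif reported for Insm1.
Sox4: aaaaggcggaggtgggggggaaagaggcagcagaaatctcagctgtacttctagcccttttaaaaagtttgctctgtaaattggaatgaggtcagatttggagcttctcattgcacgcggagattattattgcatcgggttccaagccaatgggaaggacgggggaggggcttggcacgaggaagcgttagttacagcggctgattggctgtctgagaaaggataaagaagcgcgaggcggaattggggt
Sox11: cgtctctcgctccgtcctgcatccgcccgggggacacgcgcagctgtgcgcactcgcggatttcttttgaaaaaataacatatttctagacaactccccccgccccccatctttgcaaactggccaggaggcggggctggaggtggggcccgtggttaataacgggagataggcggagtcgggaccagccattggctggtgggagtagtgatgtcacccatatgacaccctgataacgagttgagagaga
Sox12: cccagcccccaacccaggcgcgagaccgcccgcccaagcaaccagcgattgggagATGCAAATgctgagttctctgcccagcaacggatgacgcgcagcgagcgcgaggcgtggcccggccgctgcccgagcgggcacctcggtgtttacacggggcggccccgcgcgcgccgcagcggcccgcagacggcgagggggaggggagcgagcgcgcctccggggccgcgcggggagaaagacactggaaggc
Sox2: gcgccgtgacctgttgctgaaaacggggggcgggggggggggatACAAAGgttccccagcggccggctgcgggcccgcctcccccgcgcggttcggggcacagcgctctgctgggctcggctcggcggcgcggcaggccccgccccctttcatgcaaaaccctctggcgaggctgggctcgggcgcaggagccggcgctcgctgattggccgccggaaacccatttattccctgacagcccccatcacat

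The Sox12 window held 1 octamer, 195 to 188 bases upstream of the start, and the Sox2 window held 1 Sox motif, 206 to 201 bases upstream. The Sox4 and Sox11 windows held none of the 3 motifs, and the Insm1 motif was in none of the windows of the 8 Sox genes that the promoter table lists. Among 32851 mouse windows of the same length, 36.3% held the Sox motif, 1.60% the octamer and 5.17% the Insm1 motif. These matches describe letters only, and nothing about binding follows from a match or its absence. The windows differ in base composition, with GC at 50.8% for Sox4, 58% for Sox11, 74.4% for Sox12 and 72% for Sox2.

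Sox4 (13:28948919-28953699, GRCm38.p6) encodes a SoxC activator of neuronal genes. Its log2 level was 8.22, 7.98, 8.14 and 8.23 in homozygous replicates 1 to 4. Its lowest, median and highest levels were 8.01, 8.30 and 8.55 in heterozygous embryos and 8.24, 8.39 and 8.59 in wildtype embryos. All 4 homozygous embryos therefore lay below all 8 wildtype embryos, by a margin of 8.23 against 8.24, and the heterozygous embryos overlapped both. Of all probe sets, 2.48% had no overlap between homozygous and wildtype embryos, and 2.21% had the homozygous ones lower. No Sox gene was free of overlap between homozygous and heterozygous embryos, against 1.30% of all probe sets in either direction and 0.822% lower, or between heterozygous and wildtype embryos, against 0.222% in either direction and 0.126% lower. The mean was 8.14 ± 0.12 in homozygous (SD, n = 4), 8.30 ± 0.19 in heterozygous (SD, n = 6) and 8.40 ± 0.12 in wildtype embryos (SD, n = 8).

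The Sox4 difference between homozygous and wildtype embryos was -0.26 ± 0.09 (SE; 95% interval -0.45 to -0.08), a fold of 0.834. Its unadjusted p was 0.00778, a value undercut by 5.17% of all probe sets, and its limma adjusted p of 0.150 did not pass. The heterozygous difference from wildtype was -0.10 ± 0.08 (SE; -0.26 to 0.06), and the homozygous difference from heterozygous was -0.16 ± 0.09 (SE; -0.35 to 0.03). The lowest Sox4 levels of the homozygous and of the heterozygous embryos, 7.98 and 8.01, were those of the arrays with high hypoxia genes, against 8.14 to 8.59 in the other arrays. Without both arrays the homozygous difference was -0.21 ± 0.08 (SE), with an adjusted p of 0.272, and the heterozygous difference was -0.04. With the hypoxia mean as a covariate it was -0.18, with an adjusted p of 0.357.

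**Figure D2:**
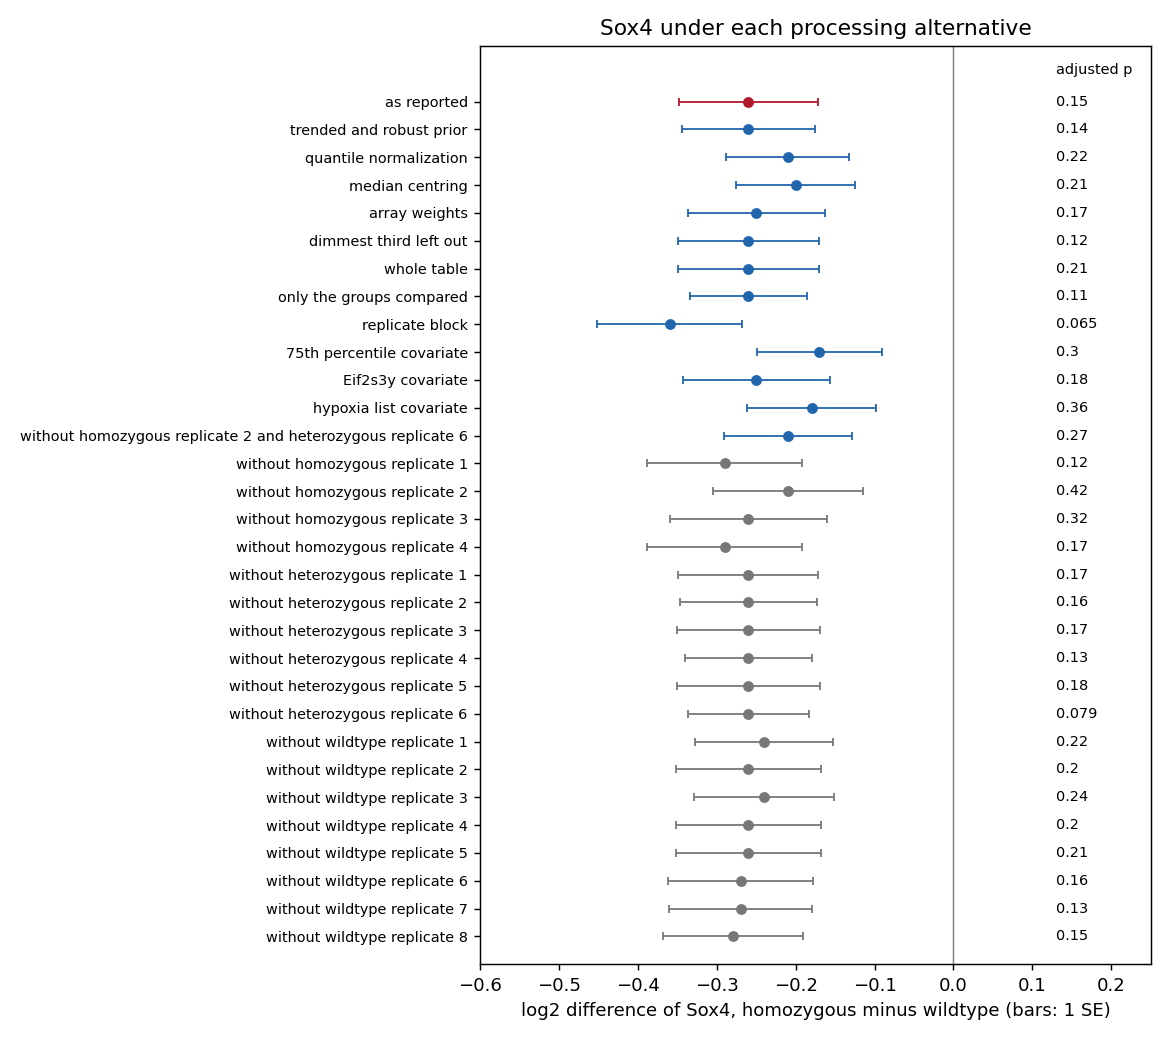
Sox4 log2 difference, homozygous minus wildtype (horizontal axis), as reported and under each other setting, including each array left out in turn, with bars for 1 SE and the adjusted p at the right. Every value is below 0, between -0.36 and -0.17, and none has an adjusted p under 0.05.

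Sox11 (12:27334268-27342718) encodes another SoxC factor abundant in young neurons. Its log2 level was 7.07, 7.73, 7.96 and 7.45 in homozygous replicates 1 to 4. The lowest, median and highest were 7.04, 7.35 and 7.58 in heterozygous and 7.43, 7.57 and 7.75 in wildtype embryos. The homozygous embryos thus lay on both sides of the wildtype range, with an SD of 0.38 against 0.12 in wildtype. The homozygous difference from wildtype was -0.03 ± 0.13 (SE; -0.30 to 0.24). In heterozygous against wildtype embryos it was -0.26 ± 0.11 (SE; -0.49 to -0.02), a fold of 0.838 with an unadjusted p of 0.0362, and the limma adjusted p of 0.658 did not pass. The homozygous difference from heterozygous was 0.22 ± 0.14 (SE; -0.06 to 0.51), and it ran from 0.09 without homozygous replicate 3 to 0.38 without homozygous replicate 1. For Sox11 the heterozygous mean was therefore the lowest of the 3, and neither neighbour in that order passed the test.

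Sox12 (2:152393611-152398046), the SoxC member regarded as the weakest activator, had log2 levels of 4.06, 4.15, 4.09 and 4.02 in homozygous replicates 1 to 4. Heterozygous embryos ran from 3.73 to 4.48 around a median of 4.09, and wildtype embryos from 4.00 to 4.28 around 4.16. The homozygous values all lay inside the wildtype range, and their difference from wildtype was -0.09 ± 0.10 (SE; -0.30 to 0.11). The lowest Sox12 level of all arrays, 3.73, was that of heterozygous replicate 6, an array with high hypoxia genes. The heterozygous difference from wildtype was -0.05 ± 0.09 (SE), and 0.03 without that array. In sign, the 3 SoxC genes had lower homozygous and lower heterozygous than wildtype means, with none of these 6 differences passing. Over all 16661 probe sets, 9848 had a lower homozygous and 10078 a lower heterozygous than wildtype mean. Over 12 other settings, the homozygous difference changed sign in 3 for Sox11 and in 1 for Sox12. The heterozygous difference of Sox12 changed sign in 5.

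The SoxB1 progenitor genes did not pass in any comparison. Sox2 (3:34649995-34652461), a factor that maintains neural stem cells, had log2 levels of 7.35, 8.17, 7.84 and 7.92 in homozygous replicates 1 to 4. Its lowest, median and highest were 7.54, 7.75 and 8.11 in heterozygous and 7.32, 7.61 and 7.94 in wildtype embryos. The genotypes overlapped. Homozygous embryos differed from wildtype by 0.19 ± 0.14 (SE), a fold of 1.14 with a 95% interval of 0.937 to 1.39 and an adjusted p of 0.550. The heterozygous difference was 0.16 ± 0.12 (SE; -0.09 to 0.41). Sox2 lies within the longer noncoding gene Sox2ot (3:34560381-34677993), and Sox1 within Sox1ot (8:12385771-12436732).

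Sox2 levels were also highest of their genotype in the arrays with high hypoxia genes, at 8.17 and 8.11, above each of the other 16. Without both arrays the Sox2 difference was 0.08 in homozygous and 0.09 in heterozygous against wildtype embryos. Without homozygous replicate 1, the lowest of its genotype, the homozygous difference was 0.35, with an adjusted p of 0.155.

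Sox1 (8:12395519-12399555), which also marks neural progenitors, had the smallest within-genotype SD of the SoxB1 genes, 0.16. Its log2 level was 5.73, 5.74, 5.53 and 5.78 in homozygous replicates 1 to 4, 5.52 to 5.93 in heterozygous and 5.41 to 6.02 in wildtype embryos. The homozygous and heterozygous ranges lay inside the wildtype one. Homozygous minus wildtype was 0.00 ± 0.09 (SE), with a 95% interval of -0.20 to 0.20, so that a change of over 0.20 in either direction lies outside the interval.

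Sox3 (X:60891366-60893430), the X-linked SoxB1 gene of early neural tissue, had log2 levels of 6.40, 6.44, 5.53 and 6.28 in homozygous replicates 1 to 4. The lowest, median and highest were 6.07, 6.24 and 6.55 in heterozygous and 5.78, 6.11 and 6.25 in wildtype embryos. Homozygous replicate 3 had the lowest level of all 18 arrays, while the other 3 homozygous embryos lay above all 8 wildtype embryos. The difference was 0.09 ± 0.14 (SE; -0.21 to 0.38) in homozygous and 0.20 ± 0.12 (SE; -0.06 to 0.45) in heterozygous against wildtype embryos. Without homozygous replicate 3 the homozygous difference was 0.30, and without both arrays with high hypoxia genes it was 0.00 in homozygous and 0.14 in heterozygous against wildtype embryos. The sex of the embryos is not given, and with the Y-linked gene Eif2s3y as a covariate the differences were 0.10 and 0.20.

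Sox21 (14:118233233-118237030), the SoxB2 gene that counters SoxB1 activity, had log2 levels of 6.60, 6.37, 6.87 and 6.75 in homozygous replicates 1 to 4. It ran from 6.36 to 6.72 in heterozygous and from 6.38 to 6.69 in wildtype embryos. Homozygous replicates 3 and 4 lay above the wildtype range and replicate 2 just below it. Homozygous embryos differed from wildtype by 0.12 ± 0.09 (SE; -0.06 to 0.30), and heterozygous embryos by 0.04 (95% interval -0.11 to 0.20). The lowest Sox21 levels of all arrays, 6.37 and 6.36, were in the arrays with high hypoxia genes. Without both arrays the Sox21 difference was 0.21 in homozygous (adjusted p 0.215) and 0.09 in heterozygous against wildtype embryos, and without homozygous replicate 3 the homozygous difference was 0.05.

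Sox9 (11:112782210-112787757), the SoxE factor of progenitors and glia, had log2 levels of 6.51, 7.03, 6.29 and 6.46 in homozygous replicates 1 to 4. Its lowest, median and highest were 6.39, 6.47 and 6.95 in heterozygous and 6.35, 6.44 and 6.55 in wildtype embryos. A homozygous and a heterozygous embryo stood above the rest, and these were the arrays with high hypoxia genes: 7.03 and 6.95, against 6.29 to 6.55 in the other 16. The homozygous difference from wildtype was 0.12 ± 0.11 (SE; -0.11 to 0.36), with an adjusted p of 0.664. Without both arrays it was -0.03 ± 0.06 (SE), with an adjusted p of 0.907, and with the hypoxia mean as a covariate -0.04 ± 0.06 (SE). Without homozygous replicate 3, the lowest of its genotype, it was 0.22.

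Sox8 (17:25565893-25570686), the SoxE gene related to Sox9, was near the low end of the scale, at 1.45, 1.44, 1.81 and 1.58 in homozygous replicates 1 to 4. It ran from 1.33 to 1.62 in heterozygous and from 1.31 to 1.66 in wildtype embryos. The homozygous difference of 0.07 ± 0.08 (SE; -0.10 to 0.23) was therefore measured close to background. Sox6 (7:115470872-116040776), the SoxD gene, had log2 levels of 6.48, 6.45, 6.17 and 6.07 in homozygous replicates 1 to 4. Heterozygous embryos ran from 6.17 to 6.70 and wildtype embryos from 6.15 to 6.48. The homozygous difference was -0.03 ± 0.10 (SE; -0.24 to 0.18), and 1 of the 4 homozygous embryos lay below the wildtype range. The highest Sox6 level of all arrays, 6.70, was that of heterozygous replicate 6, an array with high hypoxia genes. The heterozygous Sox6 difference from wildtype was 0.04 ± 0.09 (SE), and -0.02 without that array.

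**Figure D3:**
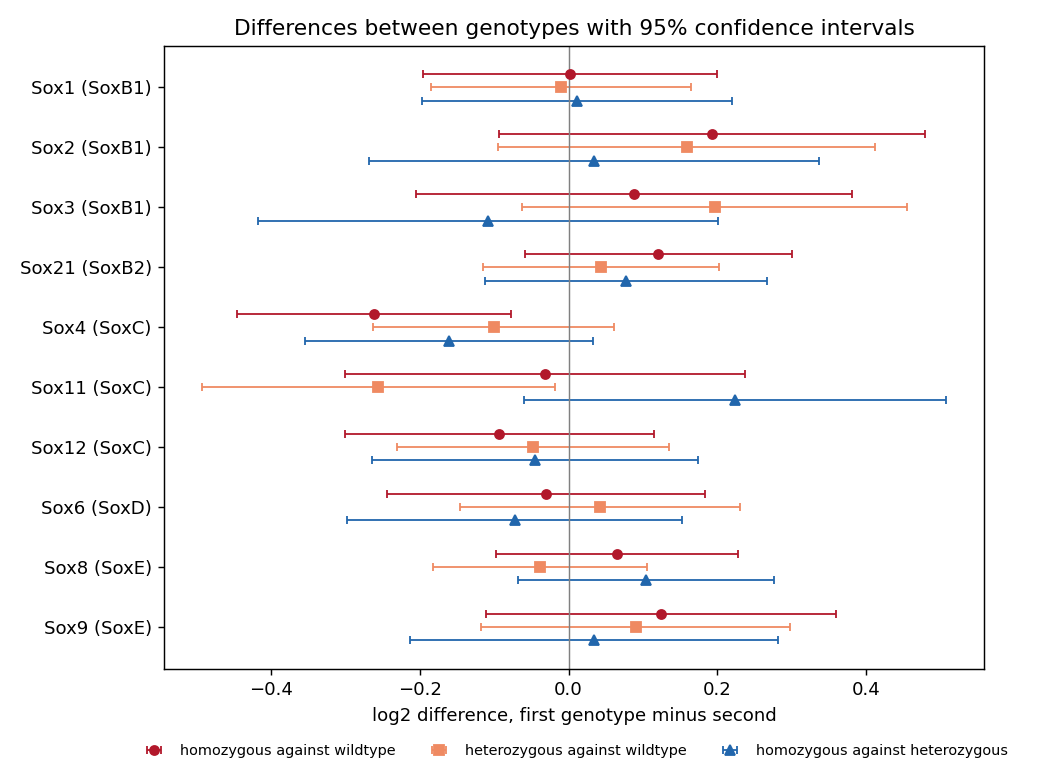
Log2 difference (horizontal axis) of the 10 Sox genes with its 95% interval, in homozygous minus wildtype, heterozygous minus wildtype and homozygous minus heterozygous embryos. The intervals include 0 except for Sox4 in homozygous minus wildtype (-0.45 to -0.08) and Sox11 in heterozygous minus wildtype (-0.49 to -0.02), and neither passed after adjustment.

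The 95% intervals hold for 1 gene each, are not adjusted for the number of genes, and are not limits of detection. They assume 1 spread for the 3 genotypes. The homozygous SD was below the wildtype SD for Sox1 (0.11 against 0.18), Sox12 (0.06 against 0.09) and Sox4 (0.117 against 0.119). It was above for the others, such as Sox3 (0.43 against 0.16) and Sox9 (0.32 against 0.07), whose intervals may be too narrow. In homozygous against wildtype embryos the intervals reached from a fold of 0.735, for Sox4, to 1.39, for Sox2. In heterozygous against wildtype embryos they reached from 0.711, for Sox11, to 1.37, for Sox3. In homozygous against heterozygous embryos they reached from 0.749, for Sox3, to 1.42, for Sox11. Both comparisons with wildtype share the same 8 arrays.

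The homozygous mean was above wildtype for 6 Sox genes and below it for 4, with a median difference of 0.03 against -0.03 over all probe sets. In heterozygous against wildtype embryos the split was 5 and 5, with a median of 0.02 against -0.03. In homozygous against heterozygous embryos it was 6 and 4, with a median of 0.02 against -0.02. The median size of a difference, sign left aside, was 0.09, 0.07 and 0.07 in these 3 comparisons, against 0.09, 0.07 and 0.08 over all probe sets.

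The Sox genes differed in how much they varied among embryos of 1 genotype. The pooled within-genotype SD was 0.25 for Sox3, 0.24 for Sox2 and 0.22 for Sox11, larger than for 88.5%, 87.5% and 83.8% of the 5483 probe sets with a mean level of at least 4. It was 0.15 for Sox4 and 0.14 for Sox21, larger than for 46.3% and 43.2%. Sox2, Sox3 and Sox9 had the highest level of their genotype in both arrays with high hypoxia genes, and Sox4 and Sox21 the lowest. These 5 of the 10 genes lay at the same end of their genotype in both arrays. Sox12 was highest of its genotype in homozygous replicate 2 (4.15) and lowest in heterozygous replicate 6 (3.73). The share of all probe sets at an end in both arrays was not counted, and the cause was not tested.

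**Figure D4:**
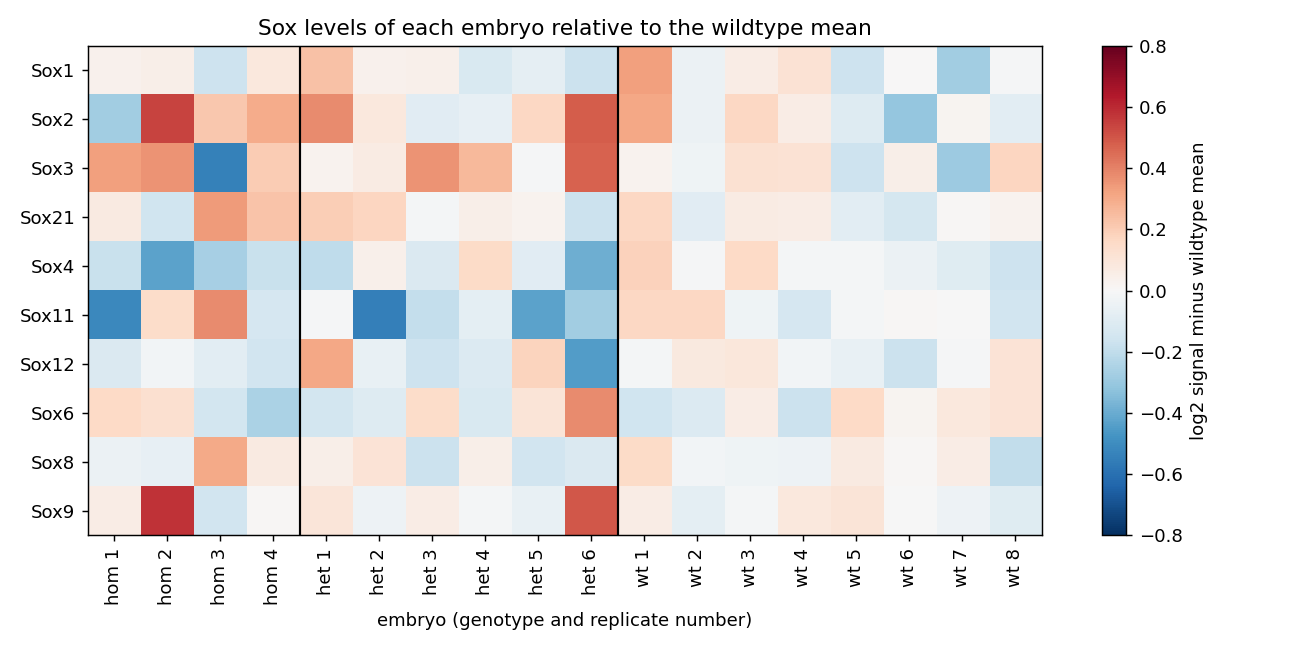
Log2 signal of each Sox gene (rows) minus its wildtype mean, by colour, in each of the 18 arrays (columns; homozygous, heterozygous, then wildtype). Homozygous replicate 2 and heterozygous replicate 6 share high Sox2, Sox3 and Sox9 and low Sox4 and Sox21.

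Genes around the Sox factors were counted in lists. Of the 8 other Sox genes measured (of 9 listed), 0 passed in homozygous against wildtype embryos, 2 were higher and 6 lower, and the median difference was -0.08. Over all 16661 probe sets, 9848 had a lower homozygous than wildtype mean. The median log2 level of these 8 genes was 1.23, near the low end of the scale, where Sox8 also lay. Sox5, the SoxD relative of Sox6, differed by -0.28 ± 0.10 (SE; adjusted p 0.166), Sox13, also SoxD, by -0.18, and Sox30 by 0.17. Of the partner factors 9 of 10 were measured and 0 passed, with a median of -0.05. The POU factors Pou3f1 and Pou3f2, which can bind DNA beside SoxB1 and SoxC proteins, differed by -0.19 and -0.12, and Nfib, a partner of Sox9 in glial development, by -0.11.

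Of 13 genes known as SoxB1 or SoxE targets 11 were measured and 0 passed, 8 being higher and 3 lower in homozygous than in wildtype embryos, with a median of 0.05. Fabp7, a fatty acid binding protein of radial glia, averaged 6.86 in homozygous and 6.41 in wildtype embryos, a difference of 0.44 ± 0.16 (SE; adjusted p 0.185). Hes5, a Notch-induced repressor of neurogenesis, differed by 0.43 ± 0.18 (SE; adjusted p 0.254), and Shh, a secreted patterning signal, by 0.13. The mean log2 level of this list was highest of all arrays in homozygous replicate 2 (5.31), an array with high hypoxia genes. Differences without that array were not computed for Fabp7 and Hes5.

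Of 8 genes known as SoxC targets in new neurons 6 were measured, and in homozygous against wildtype embryos 2 fell and 0 rose, 5 being lower and 1 higher in mean, with a median of -0.27. Over all 16661 probe sets 0.504% fell and 9848 had a lower mean. Neurod1, a proneural factor, fell by 0.69 ± 0.15 (SE), at 5.88 in homozygous and 6.56 in wildtype embryos, with an adjusted p of 0.0430. Map2, a microtubule protein of dendrites, fell by 0.30 ± 0.06 (SE), at 7.74 in homozygous and 8.04 in wildtype embryos, with an adjusted p of 0.0364. Dcx, a microtubule protein of migrating neurons, averaged 8.10 and 8.39 in the same order and did not pass, with an adjusted p of 0.0742. Each of these 3 genes had all 4 homozygous embryos below all 8 wildtype embryos, as did 2.21% of all probe sets.

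Both calls among the SoxC targets depended on the arrays and settings. Without homozygous replicate 2 and heterozygous replicate 6, the adjusted p was 0.0675 for Neurod1 and 0.0559 for Map2, with differences of -0.63 and -0.32. With homozygous replicate 2 alone left out they were 0.165 and 0.0795. The alternatives for Neurod1 and Map2 were added after the data were seen. In heterozygous against wildtype and in homozygous against heterozygous embryos 0 genes of these 4 lists passed.

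Levels of cell type marker lists stand beside the SoxC genes and their targets. The mean log2 level of the cortical neuron list, which also holds Dcx and Map2, was 6.29 to 6.38 in homozygous, 6.40 to 6.69 in heterozygous and 6.45 to 6.83 in wildtype embryos. Of its 14 measured genes 14 had a lower mean in homozygous than in wildtype embryos and 3 fell: Map2, Ina (a neurofilament protein, by 0.57 ± 0.09 SE) and Elavl3 (a neuronal RNA-binding protein, by 0.43 ± 0.09 SE). The Elavl3 call was lost without homozygous replicate 2 and heterozygous replicate 6 (adjusted p 0.0925). The basal progenitor list, which includes Insm1, lay at 5.33 to 5.40, 5.37 to 5.88 and 5.72 to 6.09 in the same order. Of its 9 measured genes 4 fell in homozygous against wildtype embryos. They were Insm1, the neuronal RNA-binding gene Elavl4 (by 0.44 ± 0.07 SE) and the bHLH factor genes Nhlh1 (by 0.69 ± 0.11 SE) and Neurod4 (by 1.28 ± 0.21 SE). Insm1 is the gene targeted, and its fall is part of the lower level of this list. Over all 16661 probe sets 0.504% fell and 9848 had a lower mean. The means of Gadd45g and Neurog2 differed by 0.30 and 0.20 without passing. The apical progenitor list lay at 6.09 to 6.30, 6.04 to 6.20 and 5.97 to 6.21, and 0 of its 10 measured genes passed. As listed, it shares Nes, Hes1, Hes5, Fabp7, Vim and Slc1a3 with the SoxB1 or SoxE targets, so the 2 lists are not separate. The part of neuron numbers in the lower Sox4 level was not tested.

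Markers of other cells that express Sox genes overlapped between genotypes. The ventral forebrain list lay at 1.66 to 1.80 in homozygous, 1.68 to 2.55 in heterozygous and 1.59 to 2.26 in wildtype embryos. Cortical hem and choroid plexus genes lay at 3.05 to 3.56, 2.75 to 3.65 and 2.74 to 3.81 in the same order. Lists of oligodendrocyte precursors (1.13 to 1.48 over all arrays) and neural crest (2.03 to 2.31) stayed low, as did that of meninges (1.24 to 1.51).

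**Figure D5:**
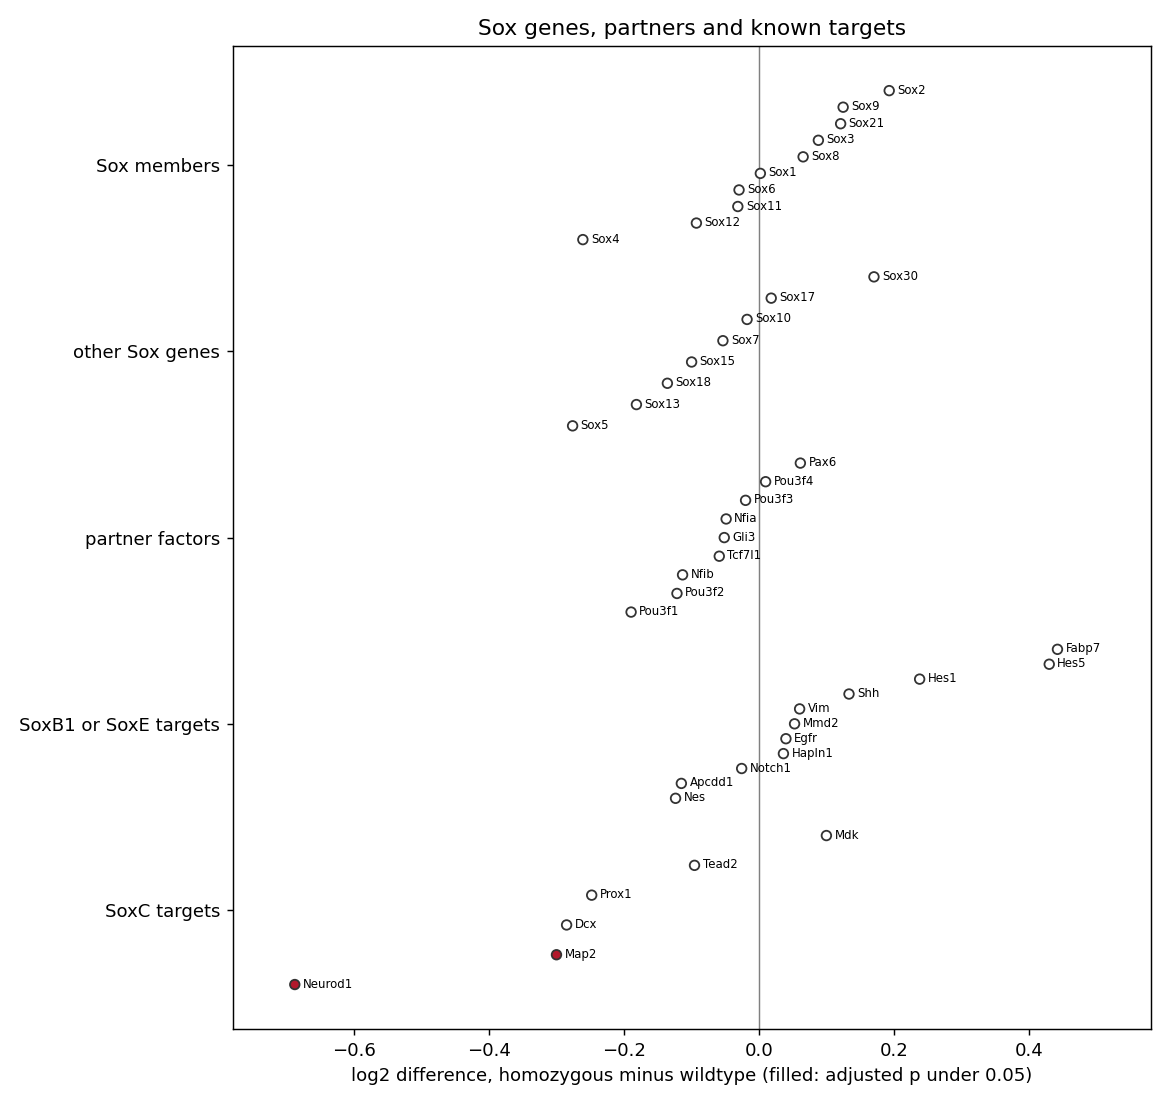
Log2 difference, homozygous minus wildtype (horizontal axis), of the 10 Sox genes, the other Sox genes measured, partner factors, and known targets of SoxB1 or SoxE and of SoxC factors, with 1 point per gene and filled points at an adjusted p under 0.05. Neurod1 (-0.69) and Map2 (-0.30) are the filled points, and Fabp7 (0.44) and Hes5 (0.43) lie farthest to the right without passing.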

How the data were processed

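RNA of 18 dorsal telencephalon samples was measured on Affymetrix whole-transcript arrays, with TRIZOL extraction and reduction of ribosomal RNA per the labels' protocols. The authors deposited log2 values per transcript-level probe set, made with RMA in Affymetrix Expression Console 1.1 per the submitters' processing notes. RMA levels arrays by quantiles, but shifts between arrays remained among the probe sets tested. Array medians there ran from 2.00 in heterozygous replicate 6 to 2.25 in wildtype replicate 4. The base of the logarithm was inferred from the values: array maxima reached at least 11.3, above 11.1, the natural log of the 16-bit maximum. Sample preparation dates, litters and the strain are not given in the sources used here.

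Of 23238 probe sets, the 16661 with an identifier of at least 6700000 were tested, and the other 6577 could not be assigned to genes. Of those tested, 14939 had 1 gene symbol, 989 several and 733 none. limma 3.58.1 in R 4.3.3 (lmFit, eBayes, two-sided) fitted a mean per genotype over all 18 arrays, and p-values were adjusted by Benjamini-Hochberg over all 16661, with a threshold of 0.05. This fit assumes 1 spread for the 3 genotypes. The number of arrays limits the precision.

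All 10 Sox genes are described. Insm1 is the check of genotype. Of the lists of other Sox genes, partners and targets, the text names genes that passed and otherwise the 3 with the smallest p. Of the cell type lists it gives levels and defining markers, and genes of the neuron and basal progenitor lists were named after their values were seen. Genes and lists were chosen with earlier results of these data known. Alternatives covered the prior, scaling, array weights, a dim filter, the whole table, the groups fitted, a replicate block, 3 covariates and arrays left out. No 2 arrays held identical values. Promoter windows and coordinates are RefSeq GRCm38.p6: 8 of the 10 genes matched a window, and Sox3 and Sox9 are only named.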

Additional observations from a re-analysis of the deposited data

Results flagged for a closer look

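The Sox9 level of heterozygous replicate 6, 6.95, lay far from the other 5 heterozygous embryos, the nearest of which was at 6.54, by Dixon's gap criterion. This was the only flag among 30 sets of values (10 Sox genes in 3 genotypes), where chance gives about 1 in 20. The same embryo is 1 of the 2 with high hypoxia genes.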

How the results depend on the processing

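No Sox gene passed in any comparison under any alternative tried, and Sox4 in homozygous against wildtype embryos stayed below 0 in all of them, with differences from -0.36 to -0.17 and adjusted p from 0.0645 to 0.357 over 12 settings and from 0.0793 to 0.417 without 1 array. Other differences changed sign, as listed here and in the next paragraphs, and the cause was not tested. In homozygous against wildtype embryos, a further quantile normalization gave 0.02 for Sox11 and 0.04 for Sox6, median centring 0.03 for both, the 75th percentile as covariate 0.01 for Sox12, Eif2s3y as covariate -0.02 for Sox1 and 0.01 for Sox11, the hypoxia covariate -0.02 for Sox3 and -0.04 for Sox9, and the removal of homozygous replicate 2 and heterozygous replicate 6 -0.01 for Sox1, 0.00 for Sox3 and -0.03 for Sox9. In heterozygous against wildtype embryos, quantile normalization gave 0.05 for Sox1 and 0.04 for Sox12, centring 0.05 for Sox1, 0.01 for Sox12 and 0.02 for Sox8, array weights 0.01 for Sox1 and Sox12, the 75th percentile 0.08 for Sox1, 0.07 for Sox12, -0.08 for Sox6, 0.00 for Sox8 and -0.01 for Sox9, the hypoxia covariate -0.01 for Sox6 and -0.02 for Sox9, and the removal of both arrays 0.02 for Sox1, 0.03 for Sox12 and -0.02 for Sox6. In homozygous against heterozygous embryos, Eif2s3y gave 0.00 for Sox1, the hypoxia covariate -0.02 for Sox2 and Sox9, and the removal of both arrays -0.04 for Sox1, -0.02 for Sox2 and -0.04 for Sox9.

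Without 1 array, homozygous minus wildtype ran from -0.04 to 0.06 for Sox1, 0.00 to 0.30 for Sox3, -0.17 to 0.13 for Sox11, -0.09 to 0.04 for Sox6, -0.01 to 0.11 for Sox8 and -0.03 to 0.22 for Sox9. Heterozygous minus wildtype ran from -0.06 to 0.04 for Sox1, -0.12 to 0.03 for Sox12 and -0.02 to 0.08 for Sox6. Homozygous minus heterozygous ran from -0.02 to 0.07 for Sox1, -0.08 to 0.19 for Sox2, -0.20 to 0.10 for Sox3 and 0.00 to 0.17 for Sox21. It ran from -0.12 to 0.03 for Sox12, -0.13 to 0.00 for Sox6 and -0.12 to 0.13 for Sox9. Without both arrays with high hypoxia genes the Sox12 difference was -0.15.

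The labels do not say whether replicate numbers pair the embryos. Deviations of same-numbered embryos from their genotype means, over all probe sets, correlated at -0.04 to 0.13 between homozygous and wildtype (4 pairs). They correlated at -0.08 to 0.22 between heterozygous and wildtype (6 pairs) and -0.21 to 0.15 between homozygous and heterozygous (4 pairs). So few pairs cannot settle whether the numbers mark shared litters. With the replicate number as a block, Sox4 was at -0.36 (adjusted p 0.0645), Sox1 at -0.11 and Sox6 at 0.08 in homozygous minus wildtype, and Sox1 at -0.05 and Sox6 at 0.01 in homozygous minus heterozygous embryos. The block gave 361 probe sets that passed in homozygous against wildtype, 0 in heterozygous against wildtype and 1 in homozygous against heterozygous embryos.

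The number of probe sets that passed in homozygous against wildtype embryos (94) was 158 with quantile normalization, 142 with centring, 146 without dim probe sets, 173 with the 75th percentile and 61 with the hypoxia covariate, and ran from 36 without homozygous replicate 2 to 394 without homozygous replicate 1. In homozygous against heterozygous embryos (5) it was 21, 13, 3 with array weights, 2 with only the groups compared and 26 with the 75th percentile, and ran from 1 without homozygous replicate 4 to 31 without homozygous replicate 1. For the genes named beside the Sox factors, whose alternatives were added after the data were seen, the adjusted p in homozygous against wildtype embryos ran over 12 settings from 0.0256 to 0.125 for Map2 and from 0.00695 to 0.122 for Neurod1. Neither passed with the whole table (0.0668 for Map2, 0.0806 for Neurod1) or the hypoxia covariate (0.0538 and 0.122), and Map2 did not with quantile normalization (0.0761), centring (0.125) or the block (0.0619). Of 18 fits without 1 array, Map2 did not pass in 10 (wildtype replicates 1, 2, 3, 4, 5 and 8, heterozygous replicate 5, homozygous replicates 2, 3 and 4; up to 0.105) and Neurod1 in 11 (the same and heterozygous replicate 1; up to 0.165). Among the genes of the neuron and basal progenitor lists, Ina, Elavl4, Nhlh1 and Neurod4 passed in homozygous against wildtype embryos under every alternative, while Elavl3 did not with quantile normalization (0.0517), centring (0.0736), the hypoxia covariate (0.0625), without both arrays (0.0925), or without wildtype replicate 1 or 3 or homozygous replicate 2, 3 or 4 (up to 0.127). Insm1 in homozygous against heterozygous embryos did not pass with only the groups compared (0.0748), the block (0.101) or without homozygous replicate 4 (0.0709).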
